A study of Saccharomyces cerevisiae with 46 samples.

Results

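Nuclear genes for mitochondrial ribosomal proteins of budding yeast were followed in cells carrying mCherry reporter plasmids. The genes were chosen by name: every row of the gene count table whose R64 locus tag has a standard symbol of MRPL, MRPS or MRP followed directly by a digit. This gave 55 genes of 5696 host features. Of these, 37 encode proteins of the large subunit and 17 encode proteins of the small subunit. The remaining gene, MRP8, matched the rule but is not annotated as a ribosomal protein in RefSeq. The rule used no measured value.

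The series asked how a promoter, a terminator and short inserts in the terminator act on a reporter, and the host transcripts described here come from the same libraries. All cells were BY4741, a laboratory strain of mating type a that lacks HIS3, LEU2, MET17 and URA3. They grew without uracil (SC-Ura) for 4 h at 30 °C and 200 rpm to an OD600 of 0.7, and all carried a plasmid. Reporters had the TSA1 promoter and terminator (pTSA1-tTSA1, 10 libraries), the PGK1 promoter and the RPS3 terminator (pPGK1-tRPS3, 10 libraries), or the RPS3 promoter and terminator (pRPS3-tRPS3, 12 libraries). These 3 combinations are called contexts. The first differs from the others in both promoter and terminator, so the parts of each cannot be told apart in it. Every context came with 5 terminators. WT had no insert. The others, modNTN, modNAA, modHTH and modNNN, had inserts at 3 sites of 9 bp each, and the letters of a name stand for its motifs. These are T (TGTACAATA), A (ATATTC), H (TTTCATTTC) and N, a random sequence. There were 4 libraries of the pRPS3-tRPS3 reporter with modNNN and 2 of each other construct. Another 2 came from cells with POT1-ccdB, which carries no reporter.

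Mitochondrial ribosomes translate the few proteins encoded in mitochondrial DNA, most of them membrane subunits of the respiratory chain and the ATP synthase. Nearly all of their own proteins are encoded in the nucleus, made in the cytosol and imported. In yeast, many of these nuclear transcripts are bound by Puf3, a PUF family RNA-binding protein that recognises sites of the form TGTANATA in the 3′ untranslated region. Puf3 is known to promote the decay of bound transcripts in cells growing on glucose.

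Such sites were found behind nearly all of the genes. TGTANATA was present on the sense strand between the stop codon and the deposited transcript end in 52 of the 54 genes with a deposited transcript (96.3%, exact 95% interval 87.3% to 99.5%). Over all 4672 genes with such a window it was present in 781 (16.7%). On the opposite strand it was present in 9 of the 54 genes (16.7%) and in 15.2% of all genes. The genes without a sense-strand match in this window were MRP8 and MRP13, a small subunit gene whose window of 47 bases was the shortest. The same match with a C at the second base before it was present in 41 of the 54 genes (75.9%) and in 5.12% of all genes. In the 200 bases after the stop codon, whatever the deposited end, TGTANATA was present in 54 of the 55 genes (98.2%). Over all 5550 genes with such a 200-base window it was present in 819 (14.8%). A match is a description of letters, not a measurement of binding.

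The sites shown are those of the genes with the largest called differences between contexts or plasmids, in order of the size of that difference. MRP8 is left out because it has no match in its deposited window. Each line gives 24 bases of the R64 genome on the gene's strand, 5′ to 3′, with the TGTANATA match in capitals.
MRP2: tacgcactTGTAAATAaatacatg
MRPS12, first site: caacctttTGTAAATAgcaatgac
MRPS12, second site: ggaactagTGTAGATAcaagacta
MRPL4: ctctctccTGTAAATAtatatata
MRPL20: aacaatcgTGTAAATActactcta
MRPS17: ctacactcTGTAAATAtatacaac
MRPL28, first site: tctcctgcTGTAAATAactgatga
MRPL28, second site: taattataTGTACATAgacatata
MRPL25: tctaatcaTGTAAATAattttgtg
MRPL24, first site: ttttccccTGTATATAaaaaagca
MRPL24, second site: tatctgttTGTACATAtgtaggta
MRPS5, first site: aaatactaTGTACATAcacacgca

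All of these lie between the stop codon and the deposited transcript end. The MRP2 match is at chrXVI:876225-876232 on the minus strand and starts 50 bases after the stop codon. Those of MRPS12 are at chrXIV:694280-694287 and chrXIV:694088-694095 on the minus strand, 74 and 266 bases after it. The MRPL4 match is at chrXII:1015478-1015485 on the plus strand, 28 bases after it. MRPL20 has its match at chrXI:599060-599067 and MRPS17 at chrXIII:636228-636235, both on the minus strand, 27 and 56 bases after the stop codon. The MRPL28 matches are at chrIV:1386548-1386555 and chrIV:1386604-1386611 on the plus strand, 32 and 88 bases after it. MRPL25 has its match at chrVII:637019-637026 on the minus strand, 78 bases after it. The MRPL24 matches are at chrXIII:650867-650874 and chrXIII:650891-650898 on the plus strand, 55 and 79 bases after it. The first MRPS5 match, at chrII:722321-722328 on the plus strand, starts 8 bases after it. A second MRPS5 match, not shown above, starts 70 bases after the stop codon.

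The 52 genes held 67 matches. A single match was present in 38 genes, 13 genes had 2, and MRPL19 had 3. The free base of the motif, written N, was A in 30 matches, T in 21, C in 13 and G in 3. Such a C, as in the MRP2 and MRPL4 lines above, preceded 41 of the 67. Matches started a median of 56 bases after the stop codon, with quartiles of 39.5 and 87 and a range of 8 to 631 bases. In 48 of the 52 genes the first match began within 100 bases of the stop codon. In other genes the median over 791 matches was 66 bases, with quartiles of 34 and 131.5.

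**Figure D1:**
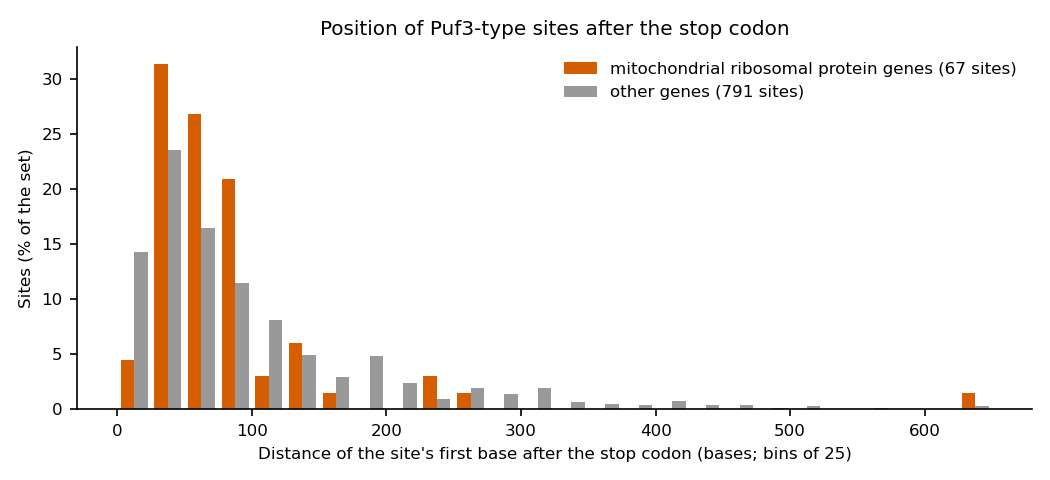
Distance from the stop codon to the first base of each TGTANATA match, in bins of 25 bases, as a percentage of the matches in each set. Orange bars are the 67 matches in mitochondrial ribosomal protein genes, with a median of 56 bases, and grey bars the 791 matches in other genes, with a median of 66 bases and a wider spread. The axis ends at 650 bases, which leaves 781 of the 791 drawn.

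The motifs inserted into the reporter terminators were searched in the same windows on the sense strand. Motif T, which does not contain TGTANATA, was present in 0 of the 54 genes, for which the exact 95% interval reaches 6.60%, and in 0.642% of all genes. Motif H was also present in 0 of the 54 genes and in 1.03% of all genes. Motif A was present in 14 of the 54 genes (25.9%, exact 95% interval 15.0% to 39.7%) and in 17.7% of all genes.

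Library totals ran from 1013603 to 3849179 counts, and the 55 genes together received between 2403 and 9361 counts per library. MET17 had 0 counts in every library and LEU2 at most 2, while the a-cell genes MFA2 and STE2 had at least 1568 and 325. The alpha-cell genes MF(ALPHA)1 and STE3 had at most 5 and 27. After the filter on low counts, 53 of the 55 genes were among 5142 features tested. QuantSeq REV reads each transcript once, at its 3′ end, so levels are given in CPM, that is, counts after scaling by library total and TMM factor, and were not divided by length. Library pPGK1-tRPS3 modNAA replicate 2 stood apart, with a TMM factor of 1.31 where the next highest was 1.14. The numbers of called genes in the comparisons of pPGK1-tRPS3 with the other contexts are also given without it. Shares, subunit counts and other values include it unless stated.

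Levels of the 55 genes covered a wide range. Over the 34 libraries the small subunit gene MRPS16 was highest at 193 ± 31.7 CPM (SD, n = 34), followed by the large subunit genes MRP7 at 160 ± 22.2 CPM and MRPL36 at 115 ± 16.0 CPM. The library ranges of these neighbours overlapped. The median of the 55 gene means was 38.4 CPM, beside 44.6 CPM over all tested features. Between 10 and 100 CPM lay 47 genes, and 4 were above 100 CPM.

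At the lower end stood the small subunit gene MRPS12 at 8.05 ± 7.66 CPM and the large subunit genes MRPL31 at 1.76 ± 1.04 CPM and MRPL8 at 0.162 ± 0.317 CPM (SD, n = 34 each). MRPL31 and MRPL8 had at most 10 and 2 counts in any library and were the 2 genes not tested. The last 200 bases of their deposited transcripts lie entirely within a same-strand neighbour, HSK3 for MRPL31 and DLS1 for MRPL8. The same holds for MRPL11 (TRM8) and MRPL24 (RPL36A), and 9 genes in all overlap a same-strand transcript in their last 200 bases. How reads shared by overlapping transcripts were counted is not given in the sources used here, so the counts of these 9 genes are uncertain.

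On the opposite strand, 30 genes share bases with another transcript, and the strand setting of the counting is not given either. MRPL22 has 1301 of its 1305 transcript bases opposite RPS3. It had between 83 and 339 counts per library, where RPS3 had between 2104 and 8076.

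Summed over the 55 genes, counts made up 0.252 ± 0.0141% of host counts with pTSA1-tTSA1 (SD, n = 10), 0.326 ± 0.0303% with pPGK1-tRPS3 (SD, n = 10) and 0.251 ± 0.0163% with pRPS3-tRPS3 (SD, n = 12). The POT1-ccdB libraries stood at 0.255% and 0.269%. By library the share ran from 0.224% to 0.276% with pTSA1-tTSA1, from 0.286% to 0.394% with pPGK1-tRPS3 and from 0.212% to 0.275% with pRPS3-tRPS3. All pPGK1-tRPS3 libraries were thus above every other library. The highest of them was modNAA replicate 2, and the next had 0.344%. On the TMM scale the gap was smaller, with summed levels of 2648 ± 77.6 CPM with pTSA1-tTSA1, 2915 ± 118 CPM with pPGK1-tRPS3 and 2566 ± 50.1 CPM with pRPS3-tRPS3. By library these ran from 2542 to 2793 CPM with pTSA1-tTSA1, from 2771 to 3155 CPM with pPGK1-tRPS3 and from 2493 to 2667 CPM with pRPS3-tRPS3. The pTSA1-tTSA1 and pPGK1-tRPS3 ranges thus overlapped at their ends on this scale.

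**Figure D2:**
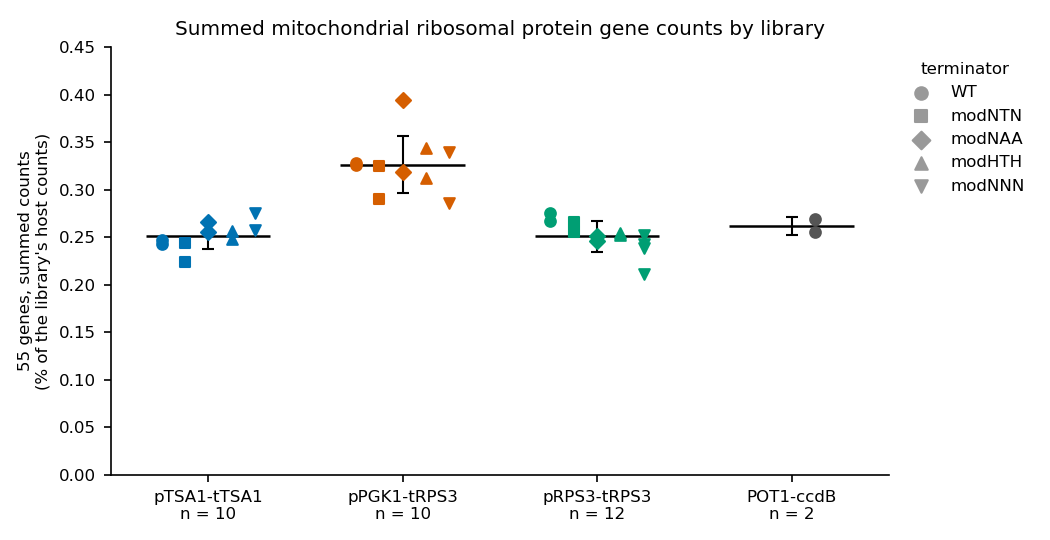
Summed counts of the 55 genes of the symbol rule, MRP8 included, as a percentage of each library's host counts, by plasmid context. Each point is 1 library, marker shapes give the terminator, and lines with bars are the mean and SD of a context. The pPGK1-tRPS3 libraries lie between 0.286% and 0.394%, above all others.

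The order of contexts was the same for large and small subunit genes. Large subunit genes held 0.162 ± 0.0106% of host counts with pTSA1-tTSA1, 0.213 ± 0.0215% with pPGK1-tRPS3 and 0.161 ± 0.0107% with pRPS3-tRPS3. Small subunit genes held 0.0837 ± 0.00513% with pTSA1-tTSA1, 0.104 ± 0.00984% with pPGK1-tRPS3 and 0.0801 ± 0.00559% with pRPS3-tRPS3. The ratio of large to small subunit counts was 1.94 ± 0.101 with pTSA1-tTSA1, 2.05 ± 0.0957 with pPGK1-tRPS3 and 2.01 ± 0.0961 with pRPS3-tRPS3, differences of about the spread between libraries.

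The share was highest in pPGK1-tRPS3 with every terminator. With pPGK1-tRPS3 the summed share ran from 0.308% for modNTN to 0.357% for modNAA, as means of 2 libraries. The modNAA libraries had 0.319% and 0.394%, the higher being the one that stood apart, and modHTH had a mean of 0.328%. The place of modNAA as highest thus rests on that library. With pTSA1-tTSA1 it ran from 0.234% for modNTN to 0.267% for modNNN, and with pRPS3-tRPS3 from 0.236% for modNNN, a mean of 4 libraries, to 0.271% for WT. The lowest pPGK1-tRPS3 construct was above the highest of both other contexts, and a different terminator was highest in each context.

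In cells with the pPGK1-tRPS3 reporter, many mitochondrial ribosomal protein transcripts were somewhat more abundant than in cells with pRPS3-tRPS3. Of the 53 tested genes, 25 rose and 4 fell at an adjusted p under 0.05 (edgeR quasi-likelihood test, Benjamini-Hochberg over all 5142 features). Over all features 38.3% were called, 17.7% higher and 20.6% lower. The median log2 fold change of the 53 genes was 0.21, beside 0.01 over all features, and 41 values were positive. By subunit, 16 of 35 large subunit genes rose and 1 fell, and 9 of 17 small subunit genes rose and 2 fell. The rises were small, from 0.20 to 0.57 on the log2 scale. Without pPGK1-tRPS3 modNAA replicate 2, 21 rose and 3 fell, and the calls over all features in that fit are not given here.

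This comparison depends on the scaling. With library totals in place of TMM, all features shifted by a median of 0.18, with 1993 higher and 577 lower. The 53 genes then had a median of 0.38, which is 0.20 above that shift, with 35 higher and 3 lower.

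MRPL28, a large subunit gene with a pair of sites, rose most. Its level ran from 39.3 to 57.5 CPM with a median of 44.3 CPM in pPGK1-tRPS3, against 26.2 to 42.2 CPM with a median of 32.5 CPM in pRPS3-tRPS3. Only the ends of these ranges overlapped. The difference was a log2 fold change of 0.57 (SE 0.08, adjusted p 5.22e-06 by edgeR).

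MRPL25, also of the large subunit, ran from 58.3 to 82.7 CPM with a median of 69.8 CPM in pPGK1-tRPS3, against 41.7 to 63.8 CPM with a median of 51.1 CPM in pRPS3-tRPS3. The ends of the ranges overlapped, and the log2 change came to 0.44 (SE 0.07, adjusted p 1.65e-05 by edgeR). The large subunit gene MRPL7 ran from 45.8 to 65.2 CPM with a median of 52.0 CPM in pPGK1-tRPS3, against 28.2 to 50.1 CPM with a median of 41.2 CPM in pRPS3-tRPS3, a log2 fold change of 0.43 (SE 0.09, adjusted p 0.000286 by edgeR). MRP17, of the small subunit, ran from 29.7 to 50.5 CPM with a median of 44.3 CPM in pPGK1-tRPS3, against 25.1 to 39.5 CPM with a median of 32.6 CPM in pRPS3-tRPS3. The fitted log2 change was 0.42 (SE 0.10, adjusted p 0.00131 by edgeR).

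The genes that fell were MRP2 and MRPS12 of the small subunit, MRPL4 of the large subunit, and MRP8. MRP2 ran from 4.87 to 19.6 CPM with a median of 10.3 CPM in pPGK1-tRPS3, against 10.5 to 58.5 CPM with a median of 28.7 CPM in pRPS3-tRPS3. On the log2 scale the fold change was −1.58 (SE 0.40, adjusted p 0.00282 by edgeR). MRPL4 ran from 1.78 to 9.72 CPM with a median of 6.47 CPM in pPGK1-tRPS3, against 5.64 to 15.4 CPM with a median of 12.3 CPM in pRPS3-tRPS3. This was a log2 fold change of −0.997 (SE 0.24, adjusted p 0.00217 by edgeR). Ranges of both genes overlapped between the contexts.

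MRPS12 was sparse, with 1 to 14 counts per library in pPGK1-tRPS3, against 2 to 51 in pRPS3-tRPS3. Its level ran from 0.324 to 8.85 CPM with a median of 3.01 CPM in pPGK1-tRPS3, against 1.32 to 27.6 CPM with a median of 8.24 CPM in pRPS3-tRPS3. The difference was a log2 fold change of −1.53 (SE 0.55, adjusted p 0.0284 by edgeR). The call was lost when any of 8 libraries was left out, with adjusted p between 0.0559 and 0.250: pPGK1-tRPS3 WT 1, modNTN 1, modNAA 2 and modNNN 1, and pRPS3-tRPS3 WT 2, modNTN 2, modHTH 2 and modNNN 4. MRP8 ran from 54.1 to 106.8 CPM with a median of 78.6 CPM in pPGK1-tRPS3, against 62.0 to 181.5 CPM with a median of 98.5 CPM in pRPS3-tRPS3. Its log2 fold change was −0.49 (SE 0.16, adjusted p 0.0149 by edgeR), and the call was lost without pRPS3-tRPS3 modNTN replicate 2 (adjusted p 0.0683) and with library totals (adjusted p 0.072).

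**Figure D3:**
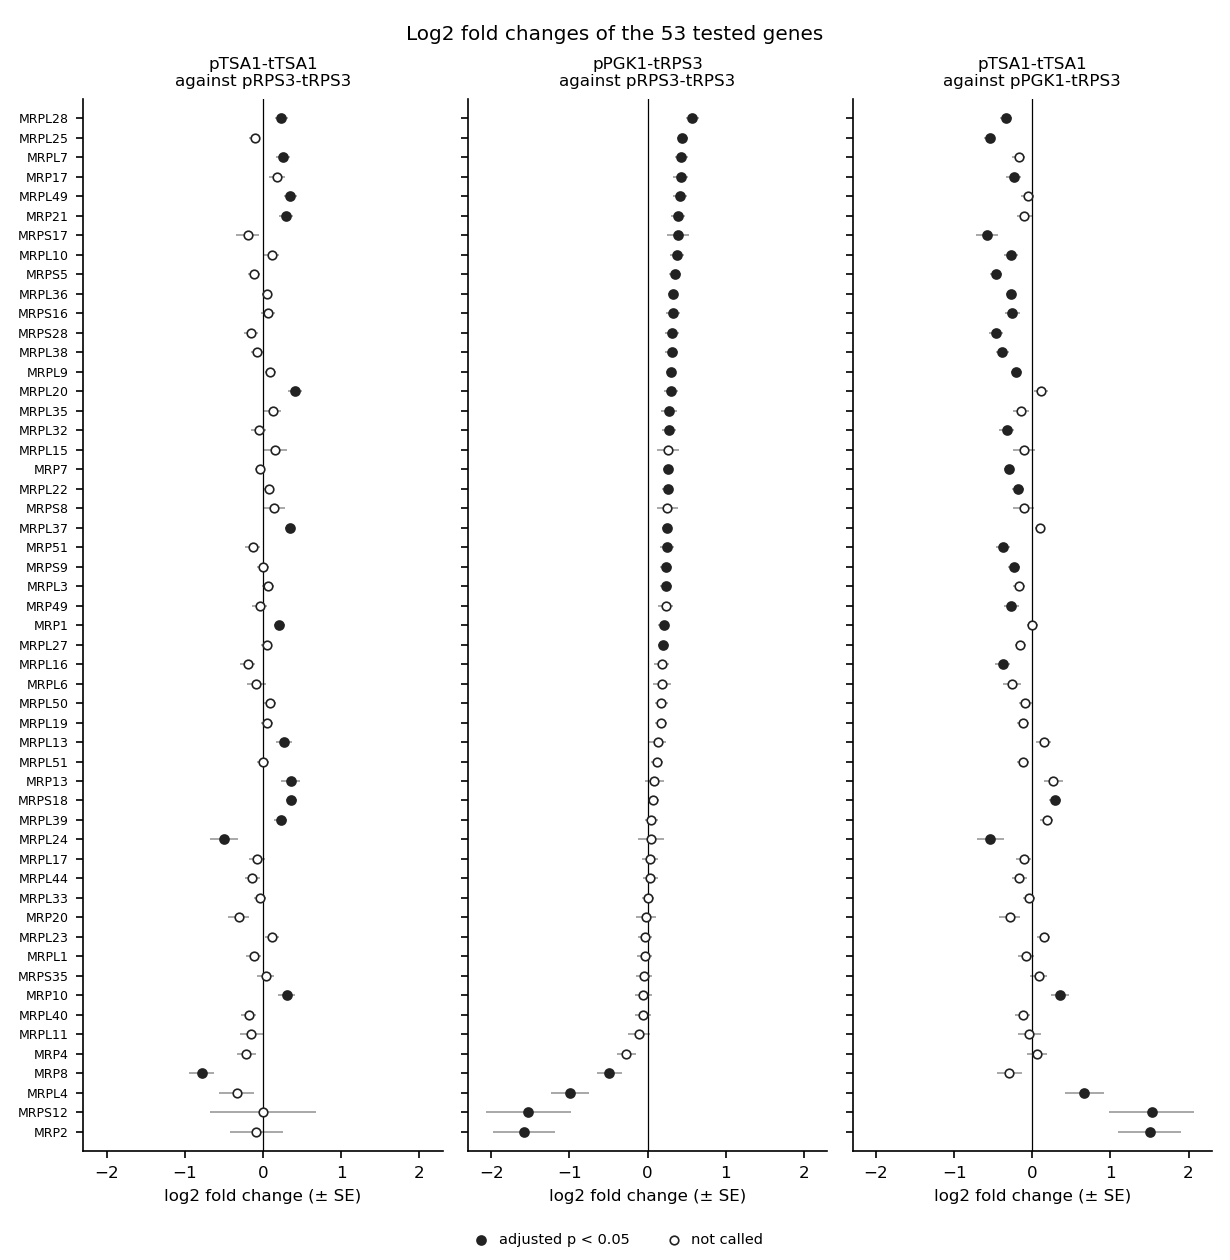
Log2 fold changes of the 53 tested genes in the 3 comparisons of contexts, with bars of 1 SE. Genes run from the highest at the top to the lowest at the bottom by their value in the middle panel, and filled points have an adjusted p under 0.05. In the middle panel called genes lie between 0.20 and 0.57, except MRP8, MRPL4, MRPS12 and MRP2, which lie between −0.49 and −1.58.

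Among the 53 tested genes, the 4 that fell had the widest spread between replicate libraries. The SD between replicates of the same plasmid on the log2(CPM + 1) scale, pooled with 18 degrees of freedom, was 1.17 for MRPS12, 0.97 for MRP2, 0.54 for MRPL4 and 0.43 for MRP8. It was under 0.4 for the other 49 genes. The median was 0.215 over the 53 genes and 0.225 over all tested features. Native PGK1, the gene of the glycolytic enzyme phosphoglycerate kinase, had a replicate SD of 1.14.

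PGK1 itself ran from 144 to 865 CPM with a median of 383 CPM in pPGK1-tRPS3, against 498 to 4130 CPM with a median of 1536 CPM in pRPS3-tRPS3, a log2 fold change of −2.14 (SE 0.42, adjusted p 0.000269 by edgeR). With the PGK1 level as a covariate, a setting added after the data were seen, the slope was 1.10 for MRPS12 (adjusted p 4.79e-12), 0.84 for MRP2 (adjusted p 1.52e-12), 0.37 for MRPL4 (adjusted p 0.000831) and 0.35 for MRP8 (adjusted p 6.98e-09), in log2 units per log2 unit of PGK1. MRP10 had a slope of 0.16 (adjusted p 0.00468), MRPL1 of 0.11 (adjusted p 0.0471) and MRPL22 of −0.11 (adjusted p 0.00903). These 7 were the genes called among the 53, where 16.3% of all features had a called slope.

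In the same fit 7 genes were higher and 0 lower in pPGK1-tRPS3 than in pRPS3-tRPS3, by edgeR, with a median log2 fold change of 0.20. Over all features in that fit 12.7% were called, 5.21% higher and 7.45% lower, with a median of −0.02. MRP2 stood at 0.24 (adjusted p 0.515), MRPS12 at 0.89 (adjusted p 0.0573), MRPL4 at −0.21 (adjusted p 0.642) and MRP8 at 0.24 (adjusted p 0.144). MRPL7 at 0.27 (adjusted p 0.109) and MRP17 at 0.35 (adjusted p 0.0848) also lost their calls. Since PGK1 differed between these contexts, its part in the result and that of the context cannot be told apart.

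**Figure D4:**
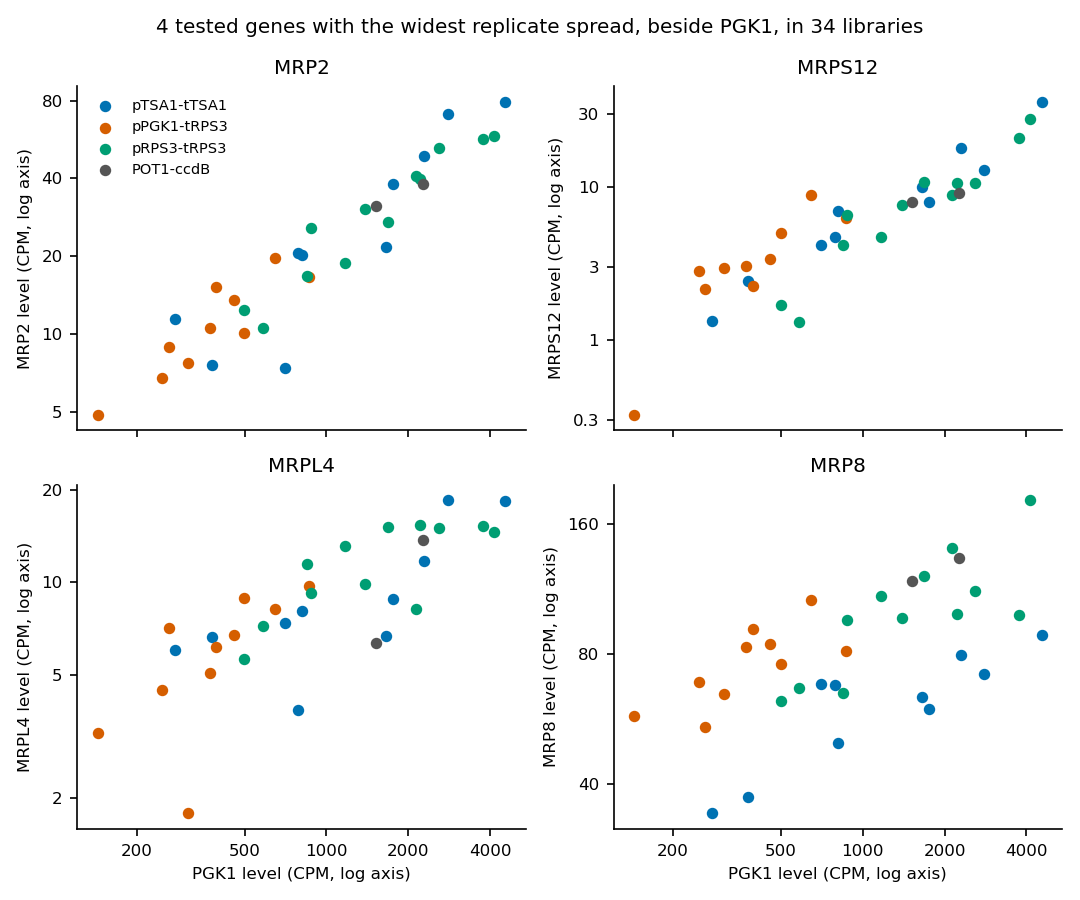
Levels of MRP2, MRPS12, MRPL4 and MRP8 beside that of native PGK1 in the same library, both in CPM on log axes. Each point is 1 of 34 libraries, coloured by plasmid context. MRP2 and MRPS12 are lowest, at 4.87 and 0.324 CPM, in the library where PGK1 is lowest at 144 CPM, and that library is pPGK1-tRPS3 modNAA replicate 2.

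In pTSA1-tTSA1 the genes as a group stood close to pRPS3-tRPS3. Of the 53 genes 12 rose and 2 fell by edgeR, where 47.9% of all features were called, 24.2% higher and 23.8% lower. The median log2 fold change was 0.04, beside 0.01 over all features. By subunit, 7 of 35 large subunit genes rose and 1 fell, and 5 of 17 small subunit genes rose and 0 fell. The rises ran from 0.21 to 0.41 on the log2 scale. With library totals 6 rose and 3 fell, where 972 features were higher and 1335 lower. Without pTSA1-tTSA1 WT replicate 2, 7 rose, and without pRPS3-tRPS3 WT replicate 1 or modHTH replicate 1, 1 fell. For these fits the calls over all features are not given here.

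MRPL20, a large subunit gene, rose most. It ran from 34.8 to 44.3 CPM with a median of 40.2 CPM in pTSA1-tTSA1, against 21.4 to 36.9 CPM with a median of 29.4 CPM in pRPS3-tRPS3, and its log2 fold change was 0.41 (SE 0.09, adjusted p 0.000335 by edgeR). Its last 200 bases overlap the same-strand gene HBS1 for 58 bases. MRPS18, of the small subunit, ran from 108.8 to 132.2 CPM with a median of 126.1 CPM in pTSA1-tTSA1, against 75.3 to 108.7 CPM with a median of 98.0 CPM in pRPS3-tRPS3. The ranges touched without overlapping, and its log2 fold change was 0.36 (SE 0.07, adjusted p 0.00011 by edgeR).

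MRPL49, of the large subunit, ran from 36.3 to 58.0 CPM with a median of 52.5 CPM in pTSA1-tTSA1, against 26.5 to 50.8 CPM with a median of 40.9 CPM in pRPS3-tRPS3. The fitted log2 change was 0.35 (SE 0.09, adjusted p 0.00173 by edgeR). MRP13, the small subunit gene without a site in its deposited window, ran from 22.04 to 35.4 CPM with a median of 26.1 CPM in pTSA1-tTSA1. In pRPS3-tRPS3 it ran from 10.4 to 25.4 CPM with a median of 21.7 CPM. On the log2 scale the fold change was 0.36 (SE 0.12, adjusted p 0.0173 by edgeR). The call of MRP13 was lost without pTSA1-tTSA1 WT replicate 2 (adjusted p 0.06), without pTSA1-tTSA1 modHTH replicate 2 (adjusted p 0.0531) and with library totals (adjusted p 0.0585).

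MRP8 and MRPL24 fell. MRP8 ran from 34.1 to 88.4 CPM with a median of 65.6 CPM in pTSA1-tTSA1, against 62.0 to 181.5 CPM with a median of 98.5 CPM in pRPS3-tRPS3. This was a log2 fold change of −0.78 (SE 0.16, adjusted p 0.000195 by edgeR), and with the PGK1 level as a covariate it was −0.66 (SE 0.08, adjusted p 9.51e-09). MRPL24, of the large subunit, ran from 4.43 to 13.8 CPM with a median of 7.59 CPM in pTSA1-tTSA1, against 5.64 to 17.8 CPM with a median of 12.6 CPM in pRPS3-tRPS3, a log2 fold change of −0.49 (SE 0.18, adjusted p 0.0232 by edgeR). Its call was lost when any of 5 libraries was left out, with adjusted p between 0.0563 and 0.133: pTSA1-tTSA1 modNTN 1 and modHTH 2, and pRPS3-tRPS3 WT 1, modNTN 2 and modHTH 1. RTC2, a same-strand gene that overlaps 137 of the last 200 bases of MRPS9, had a log2 fold change of −4.08 (SE 0.19, adjusted p 1.04e-15) in this comparison, while MRPS9 stood at 0.01 (adjusted p 0.957) and was not called.

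Both contexts above were set against the same pRPS3-tRPS3 libraries, so their calls are given side by side without a measure of likeness. MRP1, MRP21, MRPL7, MRPL20, MRPL28, MRPL37 and MRPL49 were called higher in both, and MRP8 was called lower in both. MRP10, MRP13, MRPL13, MRPL39 and MRPS18 were called higher in pTSA1-tTSA1 alone, and MRPL24 was called lower there alone. In pPGK1-tRPS3 alone 18 genes were called higher, and MRP2, MRPL4 and MRPS12 lower. A further 18 genes were called in neither. Over all features 47.9% were called in pTSA1-tTSA1 and 38.3% in pPGK1-tRPS3, each against pRPS3-tRPS3. The same split over all features is not given here, so these counts show no trait particular to the genes.

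Set directly against each other, pTSA1-tTSA1 had lower levels than pPGK1-tRPS3 in 19 of the 53 genes and higher levels in 5, by edgeR. Over all features 61.1% were called, 32.1% higher and 29% lower. The median log2 fold change of the 53 genes was −0.15, beside 0.01 over all features, and 13 values were positive. By subunit, 1 of 35 large subunit genes rose and 12 fell, and 4 of 17 small subunit genes rose and 7 fell. With library totals all features shifted by a median of −0.21, with 950 higher and 2443 lower. The 53 genes then had a median of −0.37, which is −0.16 relative to that shift, with 2 higher and 39 lower. Without pPGK1-tRPS3 modNAA replicate 2, 4 rose and 17 fell under TMM. Without pTSA1-tTSA1 modNNN replicate 2 or modNAA replicate 2, 3 rose. For the fits that left out a library the calls over all features are not given here.

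MRPS17, of the small subunit, fell most. It ran from 11.7 to 27.4 CPM with a median of 24.2 CPM in pTSA1-tTSA1, against 25.1 to 44.9 CPM with a median of 32.6 CPM in pPGK1-tRPS3, a log2 fold change of −0.58 (SE 0.14, adjusted p 0.000995 by edgeR). Its transcript end overlaps a same-strand neighbour for 139 bases. MRPL25 ran from 38.2 to 55.7 CPM with a median of 47.6 CPM in pTSA1-tTSA1, against 58.3 to 82.7 CPM with a median of 69.8 CPM in pPGK1-tRPS3. Its ranges did not overlap, and the log2 change came to −0.55 (SE 0.07, adjusted p 1.5e-07 by edgeR).

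MRPL24 ran from 4.43 to 13.8 CPM in pTSA1-tTSA1, against 8.89 to 15.8 CPM in pPGK1-tRPS3, a log2 fold change of −0.54 (SE 0.17, adjusted p 0.0098 by edgeR). RPL36A, the cytosolic ribosomal protein gene that covers its transcript end, had one of 0.97 (SE 0.15, adjusted p 3.84e-06 by edgeR). MRPS5, of the small subunit, ran from 29.8 to 41.3 CPM with a median of 37.1 CPM in pTSA1-tTSA1, against 41.3 to 56.1 CPM with a median of 52.4 CPM in pPGK1-tRPS3, and its log2 fold change was −0.46 (SE 0.08, adjusted p 1.65e-05 by edgeR). The ranges of MRPS5 met at their ends.

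Of the genes that rose, the 3 with the largest change were among the 4 that had fallen in pPGK1-tRPS3 above. Both comparisons use the same pPGK1-tRPS3 libraries, so they are not independent. MRPS12 ran from 1.34 to 36.1 CPM with a median of 7.46 CPM in pTSA1-tTSA1, against 0.324 to 8.85 CPM with a median of 3.01 CPM in pPGK1-tRPS3, a log2 fold change of 1.53 (SE 0.54, adjusted p 0.0169 by edgeR). MRP2 ran from 7.36 to 79.2 CPM with a median of 21.1 CPM in pTSA1-tTSA1, against 4.87 to 19.6 CPM with a median of 10.3 CPM in pPGK1-tRPS3, a log2 fold change of 1.50 (SE 0.40, adjusted p 0.00223 by edgeR). MRPL4 ran from 3.86 to 18.5 CPM with a median of 7.73 CPM in pTSA1-tTSA1, against 1.78 to 9.72 CPM with a median of 6.47 CPM in pPGK1-tRPS3, a log2 fold change of 0.66 (SE 0.25, adjusted p 0.0243 by edgeR). All 3 overlapped widely. PGK1 had a log2 fold change of 1.87 (SE 0.42, adjusted p 0.000418 by edgeR) in this comparison, and with its level as a covariate MRPS12 stood at −0.60 (adjusted p 0.0918), MRP2 at −0.11 (adjusted p 0.675) and MRPL4 at −0.0023 (adjusted p 0.999).

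The MRPS12 call was also lost without pTSA1-tTSA1 modNAA replicate 2 (adjusted p 0.1), pTSA1-tTSA1 modNNN replicate 2 (adjusted p 0.34) or pPGK1-tRPS3 modNAA replicate 2 (adjusted p 0.0512). The MRPL4 call was lost with library totals (adjusted p 0.104) and without pTSA1-tTSA1 WT 1, modNAA 2, modHTH 1 or modNNN 2 or pPGK1-tRPS3 modNNN 1, with adjusted p between 0.0587 and 0.146. MRP10, of the small subunit, ran from 27.1 to 43.8 CPM with a median of 35.6 CPM in pTSA1-tTSA1, against 21.1 to 37.3 CPM with a median of 28.1 CPM in pPGK1-tRPS3. Its log2 fold change was 0.36 (SE 0.11, adjusted p 0.00706 by edgeR), and it lost its call with library totals (adjusted p 0.264) and with the PGK1 covariate (adjusted p 0.569).

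Few of these transcripts were called different between cells with a reporter and cells with POT1-ccdB. Of the 53 genes 2 were higher and 0 lower over the 32 reporter libraries by edgeR, where 12% of all features were called, 4.8% higher and 7.16% lower. DESeq2 also called 2, and 8 genes had an unadjusted p under 0.05. The median log2 fold change was 0.00, and it was 0.00 over all features. POT1-ccdB had 2 libraries, and the 51 genes not called ran from −0.69 to 0.48. Differences of such sizes could thus go uncalled. Without either POT1-ccdB library, 0 genes were called higher by edgeR. MRP8 was called lower in 8 of the fits that left out 1 library, those without pTSA1-tTSA1 modNAA 1, modNAA 2, modNNN 1 or modNNN 2, pPGK1-tRPS3 WT 2, or pRPS3-tRPS3 modNTN 2, modHTH 2 or modNNN 4. MRP20 was called lower in the fit without pTSA1-tTSA1 modHTH 2. For the fits that left out a library the calls over all features are not given here.

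MRPL20 ran from 21.4 to 44.3 CPM with a median of 35.5 CPM in the reporter libraries, against 22.7 and 23.6 CPM in POT1-ccdB, and 31 of the 32 reporter libraries were above both. The fitted log2 change was 0.59 (SE 0.15, adjusted p 0.00783 by edgeR). MRPL37, a large subunit gene, ran from 67.9 to 125.5 CPM with a median of 95.9 CPM in the reporter libraries, against 74.0 and 74.4 CPM in POT1-ccdB, and 29 reporter libraries were above both. On the log2 scale the fold change was 0.37 (SE 0.10, adjusted p 0.0154 by edgeR). Without POT1-ccdB replicate 1 the adjusted p was 0.17 for MRPL20 and 0.219 for MRPL37, and without replicate 2 it was 0.103 for MRPL20 and 0.152 for MRPL37.

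No mitochondrial ribosomal protein gene passed the threshold for any terminator. Averaged over the 3 contexts, 0 of 53 genes were called for WT, modNTN, modNAA or modHTH against modNNN by edgeR, and 0 by DESeq2. Over all features the shares called were 0.0583% for WT, 0.0194% for modNTN, 0% for modNAA and 0.428% for modHTH. An unadjusted p under 0.05 was reached by 4 of the 53 genes for WT, 2 for modNTN, 2 for modNAA and 3 for modHTH. The median log2 fold change was 0.01 for WT, −0.03 for modNTN, 0.02 for modNAA and 0.00 for modHTH, with a median SE per gene of 0.11 to 0.12. Without pPGK1-tRPS3 modNAA replicate 1, which leaves 1 library for that construct, MRPS18 was called lower for modNAA, at −0.27.

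Within single contexts the 12 contrasts against modNNN gave 636 tests of these genes. Of these 0 were called by edgeR and 0 by DESeq2, and 27 had an unadjusted p under 0.05 (4.25%). Over all features in the same contrasts 0.373% were called, and 7.15% had an unadjusted p under 0.05. Medians of the 53 genes ran from −0.12 to 0.07 over the contrasts, and with a median SE per gene between 0.19 and 0.21 in each contrast, differences of that size were not detectable for single genes.

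The lowest adjusted p belonged to MRPL1, a large subunit gene named here after its values were seen, for modNAA in pPGK1-tRPS3. MRPL1 stood at 60.4 and 30.2 CPM with modNAA, against 64.5 and 93.2 CPM with modNNN, a log2 fold change of −0.86 (SE 0.23, adjusted p 0.0618 by edgeR). With the PGK1 level as a covariate MRPL1 was called, at −0.74 (adjusted p 0.0438 by edgeR). The lower modNAA value belongs to the library that stood apart. Leaving out the other modNAA library, so that this one alone stood for modNAA, put MRPL1 at −1.38 and MRPS18 at −0.81. Without pPGK1-tRPS3 modNNN replicate 1, which leaves 1 library for that construct, MRPL1 stood at −1.11 and MRPL40 at −0.94 for modNAA. Without pPGK1-tRPS3 modNAA replicate 2, MRPS18 stood at −0.36 for modHTH in pRPS3-tRPS3. These genes were called in their fits, but the calls over all features there are not given here.

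Tests of whether a terminator's effect in pTSA1-tTSA1 or pPGK1-tRPS3 differed from that in pRPS3-tRPS3 gave 424 tests of these genes. Of these 0 were called by edgeR and 0 by DESeq2, and 15 had an unadjusted p under 0.05 (3.54%). The effects in pTSA1-tTSA1 and pPGK1-tRPS3 were not tested against each other. Over all features 0.0486% were called, and 7.74% had an unadjusted p under 0.05. Without pPGK1-tRPS3 modNAA replicate 1, MRPL1 was called at −1.45 and MRPS18 at −0.76, both for modNAA in pPGK1-tRPS3. That fit leaves 1 library for the construct, and its calls over all features are not given here.

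**Figure D5:**
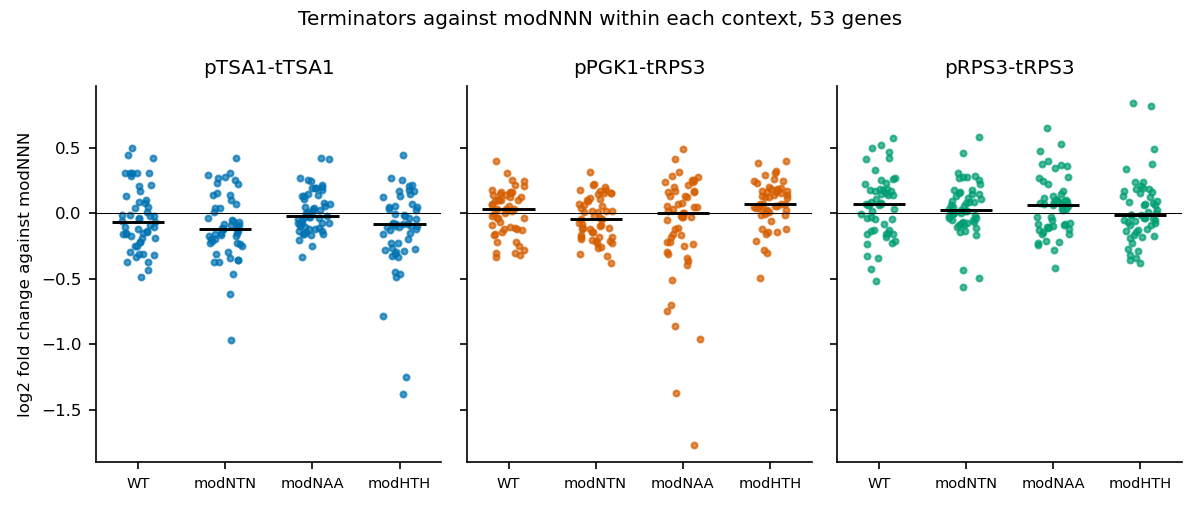
Log2 fold changes of the 53 tested genes for each terminator against modNNN within each context. Each point is 1 gene, spread sideways at random, and each bar is the median of a contrast. The medians lie between −0.12 and 0.07, and 0 of the 636 points had an adjusted p under 0.05.

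Other genes of mitochondrial translation, outside the symbol rule, give the surroundings of these changes. Of 22 other mitochondrial ribosomal protein genes, 12 rose and 2 fell in pPGK1-tRPS3 against pRPS3-tRPS3, with a median log2 fold change of 0.23. RSM24, of the small subunit, rose by 0.55 (SE 0.11, adjusted p 0.000439 by edgeR) and MHR1, of the large subunit, by 0.41 (SE 0.10, adjusted p 0.00186 by edgeR). RTC6, of the large subunit, fell by 0.33 on the log2 scale (adjusted p 0.0252 by edgeR) and RSM19, of the small subunit, by 0.30 (adjusted p 0.0256 by edgeR). In pTSA1-tTSA1 6 of the 22 rose and 0 fell against pRPS3-tRPS3 (median 0.07), and 3 rose and 10 fell against pPGK1-tRPS3 (median −0.11). In the order of these comparisons, 63.6%, 27.3% and 59.1% of the 22 were called. Over all features the shares were 38.3%, 47.9% and 61.1%.

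Of 19 tested genes of mitochondrial translation factors and aminoacyl-tRNA synthetases, 9 rose and 0 fell in pPGK1-tRPS3 against pRPS3-tRPS3, with a median of 0.25. IFM1, the mitochondrial initiation factor, rose by 0.46 (SE 0.16, adjusted p 0.0228 by edgeR) and MSY1, the mitochondrial tyrosyl-tRNA synthetase, by 0.44 (SE 0.14, adjusted p 0.0132 by edgeR). In pTSA1-tTSA1 2 rose and 6 fell against pRPS3-tRPS3 (median −0.13), and 0 rose and 9 fell against pPGK1-tRPS3 (median −0.33). In the order of these comparisons, 47.4%, 42.1% and 47.4% of the 19 were called. Over all features the shares were 38.3%, 47.9% and 61.1%. In pTSA1-tTSA1 against pRPS3-tRPS3, MSM1 rose by 0.54 (SE 0.14, adjusted p 0.00219 by edgeR). TUF1, the mitochondrial elongation factor Tu, rose by 0.45 (SE 0.07, adjusted p 2.31e-06 by edgeR). DIA4, a seryl-tRNA synthetase, had a log2 fold change of −0.61 (SE 0.13, adjusted p 0.000308 by edgeR).

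Of 35 respiratory chain and ATP synthase genes, 5 rose and 14 fell in pPGK1-tRPS3 against pRPS3-tRPS3, with a median of −0.11. COX5A, a cytochrome c oxidase subunit, had a log2 fold change of −0.99 (SE 0.19, adjusted p 0.000241 by edgeR), and SDH3, a succinate dehydrogenase subunit, rose by 0.32 (SE 0.07, adjusted p 0.000971 by edgeR). In pTSA1-tTSA1 2 rose and 22 fell against pRPS3-tRPS3 (median −0.28), with the largest fall for SDH2, another succinate dehydrogenase subunit, at −0.93 (SE 0.08, adjusted p 3.35e-10 by edgeR). Against pPGK1-tRPS3 5 rose and 15 fell there (median −0.13). Over reporters against POT1-ccdB 0 rose and 11 fell (median −0.32), while 0 of the 22 other mitochondrial ribosomal protein genes were called by edgeR and 3 had an unadjusted p under 0.05. In the order of these 4 comparisons, 54.3%, 68.6%, 57.1% and 31.4% of the 35 were called. Over all features the shares were 38.3%, 47.9%, 61.1% and 12%.

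Of 137 tested cytosolic ribosomal protein genes, 1 rose and 95 fell in pPGK1-tRPS3 against pRPS3-tRPS3, with a median of −0.33. In pTSA1-tTSA1 74 rose and 0 fell against pRPS3-tRPS3 (median 0.20), and 133 rose and 0 fell against pPGK1-tRPS3 (median 0.58). In the order of these comparisons, 70.1%, 54.0% and 97.1% of the 137 were called. Over all features the shares were 38.3%, 47.9% and 61.1%. RPL25, with the largest fall in pPGK1-tRPS3, stood at −2.23 (SE 0.39, adjusted p 8.16e-05 by edgeR). Its level varied widely, from 34.7 to 3326 CPM with a median of 947 CPM over the 34 libraries.

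Of the 6 PUF family genes, 1 rose and 1 fell in pPGK1-tRPS3 against pRPS3-tRPS3, and 1 rose and 3 fell in pTSA1-tTSA1 against pRPS3-tRPS3. Over all features 38.3% were called in the first comparison and 47.9% in the second. PUF3 was sparse, with 7 to 61 counts per library. PUF3 had a log2 fold change of −0.38 (SE 0.16, adjusted p 0.0483 by edgeR) in pTSA1-tTSA1 and −0.27 (SE 0.15, adjusted p 0.168 by edgeR) in pPGK1-tRPS3, each against pRPS3-tRPS3. Between reporters and POT1-ccdB it was −0.31 (SE 0.22, adjusted p 0.408 by edgeR).

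Other genes with a site give the same comparison outside the mitochondrial ribosome. Of 711 other tested genes with TGTANATA in their window, 159 rose and 125 fell in pPGK1-tRPS3 against pRPS3-tRPS3, with a median of 0.04. Of 3689 tested genes with a window and no such motif, 620 rose and 855 fell, with a median of −0.01. Among the mitochondrial ribosomal protein genes, 16 of 36 with a single site rose and 2 fell, and 8 of 14 with 2 or 3 sites rose and 1 fell, both with a median of 0.22. With a C at the second base before a site the median was 0.19 over 40 genes, and without it 0.25 over 10 genes. These medians are descriptions without a test.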

How the data were processed

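Libraries were made with QuantSeq REV, per the labels' protocols, and read the 3′ ends of transcripts. The deposited gene table holds raw counts per gene, and the authors also deposited an annotation with the longest transcript of each open reading frame. FastQC, cutadapt, HISAT2, featureCounts, SAMtools, bedtools and MultiQC are named with the builds sacCer3 and R64, per the submitters' processing notes. Their settings, strand use included, are not given in the sources used here. Of 46 samples, 34 have a gene count column, and the other 12 were not analysed here.

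Counts were tested with edgeR 4.0.16 and limma 3.58.1 in R 4.3.3. All 34 libraries entered a single fit with a coefficient for each plasmid group, after filterByExpr had removed low features and TMM had set the scale. The quasi-likelihood p-values were adjusted by Benjamini-Hochberg over all 5142 features that passed, with a threshold of 0.05. Each SE is the log2 fold change divided by the square root of the F statistic, which is unreliable for fold changes close to 0. A context is the mean of its 5 terminators. CPM are counts scaled to the TMM-adjusted total. The labels do not say that libraries came from separate cultures, so p-values measure the spread between these libraries, which may be technical. Total counts limit the precision of sparse genes, and intervals of shares cover counting error only.

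Genes named were, by rule, up to 4 called genes with the largest fold change in each direction of a comparison of plasmids. The 3 highest and 3 lowest by mean CPM were named as well. From the other lists, genes were taken among the called genes with the largest changes. Genes outside these rules, such as MRPL1, MRPL22 and MRPS9, were named with their values known. Genes and lists were chosen with earlier results of these data known. Motifs were searched with Python 3.11.15 between stop codon and deposited transcript end in the RefSeq R64 genome. TGTANATA was also searched in the 200 bases after the stop codon. Alternatives were DESeq2 1.42.0, library totals, other filters, a replicate block, only the groups compared, each library left out, and the PGK1 level as a covariate, which was added after the data were seen. The code was tested on simulated data.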

Additional observations from a re-analysis of the deposited data

Results flagged for a closer look

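In 4 of 63 groups examined, over 21 values, the highest or lowest library stood far from its nearest neighbour by Dixon's criterion, which chance meets in about 1 in 20 groups. MRP17 had 29.7 CPM in pPGK1-tRPS3 modNNN replicate 2, where the nearest library of the context had 42.7 CPM and the median was 44.3 CPM. MRPS12 had 36.1 CPM in pTSA1-tTSA1 modNAA replicate 2, where the nearest had 18.03 CPM and the median was 7.46 CPM. The other two flags fell in pPGK1-tRPS3 modNAA replicate 2, the library that stood apart above. MRPL36 had 172.6 CPM there, where the nearest had 140.7 CPM and the median was 128.3 CPM. MRPS18 had 56.8 CPM there, where the nearest had 97.2 CPM and the median was 102.8 CPM. The causes were not tested.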

How the results depend on the processing

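With library totals, pTSA1-tTSA1 against pRPS3-tRPS3 had 6 genes higher. The median of pPGK1-tRPS3 against pRPS3-tRPS3 was then 0.38. That of pTSA1-tTSA1 against pPGK1-tRPS3 was −0.37, with 2 genes higher and 39 lower. Reporters against POT1-ccdB had 1 higher and 1 lower, where all features had 200 higher and 329 lower. With at least 10 counts in every library, which removes sparse genes, pPGK1-tRPS3 against pRPS3-tRPS3 had 2 lower, where 956 of 4287 features were lower. Under this filter pTSA1-tTSA1 against pPGK1-tRPS3 had 3 higher, where 1409 features were higher. Reporters against POT1-ccdB had 1 lower, where 379 features were lower. With the PGK1 covariate, added after the data were seen, pPGK1-tRPS3 against pRPS3-tRPS3 had 7 higher and 0 lower by edgeR, where all features had 268 higher and 383 lower (908 and 1061 without it). pTSA1-tTSA1 against pPGK1-tRPS3 had 2 higher, where all features had 1408 higher and 1238 lower (1652 and 1492 without it). modHTH over 3 contexts then had 1 higher, MRP8, where all features had 53 higher and 23 lower (13 and 9 without it). Single contexts had 2 calls, MRP8 for modHTH in pRPS3-tRPS3 and MRPL1 for modNAA in pPGK1-tRPS3. For single contexts the calls over all features under this covariate are not given here. Signs reversed under it in pPGK1-tRPS3 against pRPS3-tRPS3 for MRP2 (0.24), MRPS12 (0.89) and MRP8 (0.24), and in pTSA1-tTSA1 against pPGK1-tRPS3 for MRPS12 (−0.60) and MRP2 (−0.11). None of these passed the threshold. MRPL4 came to −0.0023 there (adjusted p 0.999), which gives no direction. The cause was not tested. The share of genes with a site was 83.3% for TGTAAATA and TGTATATA alone and 75.9% for matches with a C at the second base before.

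Leaving out each of 34 libraries gave 7 to 12 genes higher, 1 to 3 lower and medians of −0.02 to 0.05 in pTSA1-tTSA1 against pRPS3-tRPS3. It gave 20 to 26 higher, 3 to 5 lower and medians of 0.17 to 0.23 in pPGK1-tRPS3 against pRPS3-tRPS3. In pTSA1-tTSA1 against pPGK1-tRPS3 it gave 3 to 7 higher, 15 to 24 lower and medians of −0.17 to −0.11, and in reporters against POT1-ccdB 0 to 2 higher and 0 to 1 lower. The calls over all features in these fits are not given here, so whether the ranges follow them cannot be read from the counts. For terminators, calls were gained only in the fits described above, without a pPGK1-tRPS3 modNAA library or without pPGK1-tRPS3 modNNN replicate 1. Of the 24 results for named genes, over the settings that left out no library, 149 values kept direction and call, 9 kept direction only and 6 reversed. MRPS12 and MRPL4 have no value under the filter on counts in every library. The reversals include MRPL4 at −0.0023, which gives no direction.

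Over 120 pairs of groups the correlation of same-numbered deviations had a median of 0.02 and ran from −0.393 to 0.597, with 42 pairs over 0.1. Replicate numbers thus showed no pairing common to all groups. Whether some groups were paired was not tested. With the replicate block, reporters against POT1-ccdB had 1 gene lower, MRP8, where 434 of all features were lower. pTSA1-tTSA1 against pPGK1-tRPS3 then had 6 genes higher and 21 lower, where all features had 1677 higher and 1510 lower. Counts as low as 1 limit MRPS12, and 3 limit MRPL4.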
